A study of Mus musculus with 20 samples.

Results

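Satellite glial cells wrap the cell bodies of sensory neurons in the dorsal root ganglion (DRG), and 9 genes known as their markers were followed here in RNA from sorted Trpv1 neurons. The 9 genes (Fabp7, Glul, Apoe, S100b, Cdh19, Slc1a3, Gfap, Sox2 and Gja1) were taken by their Ensembl identifiers from a table of 37620 genes. All 9 are in the table, and 8 of them passed the filter on low values and were tested between spinal levels, among 16304 genes tested. DRG were taken from adult mice of both sexes, 6 to 8 weeks old, from segments L4 to L5, here called lumbar, and from L6 to S1, called sacral. All mice were homozygous for Trpv1tm2Bbm, which places a membrane phosphatase and a nuclear β-galactosidase under the Trpv1 gene. Dissociated cells were incubated with a galactosidase substrate, and the brightest of the cells that had converted it were sorted. Both levels carry the same reporter. The paper gives the cut as a share of the converting cells, and whether the same intensity gate served both levels is not stated. The 4 groups (lumbar male, sacral male, lumbar female and sacral female) hold 5 libraries each. The lumbar and sacral libraries of a donor share their animal numbers and were treated as pairs, with donors named M1 to M5 and F1 to F5. Each donor label gives a pair of animal numbers, so a library may hold ganglia of more than 1 mouse, and p-values take donors, not mice, as the units. The test between levels used donor as a block and draws on differences within donors, while the sexes were compared between donors.

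A satellite glial cell envelops a single neuronal soma, often with several neighbours coupled by gap junctions into 1 sheath. The sheath clears glutamate and potassium, converts glutamate to glutamine and supplies lipid carriers. Because the sheath adheres tightly, its RNA can travel with a sorted neuron. Values are relative to a bulk library, so the number of glial cells, the glial RNA per cell and the amount of other RNA cannot be told apart.

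The libraries held 44044433 to 66679130 reads on genes, as worked back from the deposited values, and every library had the same median of 0.93 log2 RPKM (log2 of reads per kilobase of exon, scaled to library size). Mitochondrial genes took 37.0 to 60.2% of the reads in the lumbar and 21.4 to 41.4% in the sacral libraries. All 10 neuron markers checked were higher at the sacral level in the deposited scaling, by a median of 0.53 on the log2 scale, and with TMM factors 9 of 10 were. Of 16304 genes, 45.6% differed between levels at an adjusted p of at most 0.05, 15.3% being higher in the lumbar and 30.3% higher in the sacral libraries. These are the background shares for the counts of glial genes given here. With TMM factors on the worked-back reads the same shares were 22.6% and 19.8%, with total reads 8.73% and 58.0%, and with quantile normalization 18.6% and 23.0%.

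The promoters of 8 of the 9 genes were found in the RefSeq table for GRCm38.p6, in 10 entries of 300 bases each. Cdh19 was not matched. Each entry runs from 250 bases before to 50 bases after the annotated start. Both strands were searched for the cores of the glial SOX factors (ACAAAG and ACAATG), the core bound by RBPJ, the Notch effector (TGGGAA), and the letters TATAAA. No motif overlapped another of a different kind. The promoters of the gene with the largest level difference (Fabp7), of the gene with the smallest among the tested (S100b) and of the SOX factor itself (Sox2) are shown 5′ to 3′, with matches in capitals (TTCCCA is TGGGAA on the other strand).
Fabp7, chr10:57784673-57784972, plus strand: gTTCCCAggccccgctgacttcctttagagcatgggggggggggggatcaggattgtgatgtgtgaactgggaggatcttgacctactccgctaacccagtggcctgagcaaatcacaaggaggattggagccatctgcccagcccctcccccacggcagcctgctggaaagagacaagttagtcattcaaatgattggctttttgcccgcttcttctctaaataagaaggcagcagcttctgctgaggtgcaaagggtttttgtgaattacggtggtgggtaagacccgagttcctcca
S100b, chr10:76253586-76253885, plus strand: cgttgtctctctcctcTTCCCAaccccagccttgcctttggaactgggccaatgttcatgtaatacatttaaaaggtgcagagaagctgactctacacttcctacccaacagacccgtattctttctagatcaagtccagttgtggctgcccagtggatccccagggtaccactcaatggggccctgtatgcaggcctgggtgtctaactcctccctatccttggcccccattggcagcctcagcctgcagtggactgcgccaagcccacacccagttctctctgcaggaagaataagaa
Sox2, chr3:34649745-34650044, plus strand: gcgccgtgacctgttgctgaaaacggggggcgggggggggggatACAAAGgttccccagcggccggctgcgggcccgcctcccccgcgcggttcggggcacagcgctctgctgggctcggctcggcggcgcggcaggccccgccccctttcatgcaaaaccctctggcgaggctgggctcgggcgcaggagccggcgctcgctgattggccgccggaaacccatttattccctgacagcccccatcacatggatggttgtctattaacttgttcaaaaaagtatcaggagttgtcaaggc
Fabp7 and S100b each hold 1 match to the RBPJ core, and Sox2 holds 1 SOX core. Apoe has several of the 10 entries, some of them overlapping, and matches of each kind lie among its entries, so the 10 are not independent. Over the 10 entries, 4 held the RBPJ core, against 25.6% of 32851 RefSeq promoters. A SOX core was found in 2 entries, against 28.6% of all promoters, and TATAAA in 2, against 13.6%. The matches describe letters in these windows and say nothing of what binds there.

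All 8 satellite glial genes tested were higher in the lumbar than in the sacral libraries (limma on the log2 RPKM with donor as a block, adjusted over all genes tested). In the deposited scaling the lumbar library was the higher one in all 10 donors for each of the 8 genes, that is in 80 of 80 donor differences. These come from 10 donors, so the 80 are not independent. Of all genes with a value in every library, 6.55% were higher in the lumbar library of all 10 donors. As a share of all reads, some of the 80 differences reversed, among them that of S100b in every female donor. Fabp7 and Apoe stayed higher in the lumbar library of all 10 donors on that measure. The median difference of the 8 genes was 0.87 on the log2 scale, while that of all genes tested was -0.11. None of the 8 separated the 10 lumbar from the 10 sacral libraries without overlap, which 0.372% of genes did. The differences ranged from 1.33-fold in S100b to 2.60-fold in Fabp7.

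**Figure D1:**
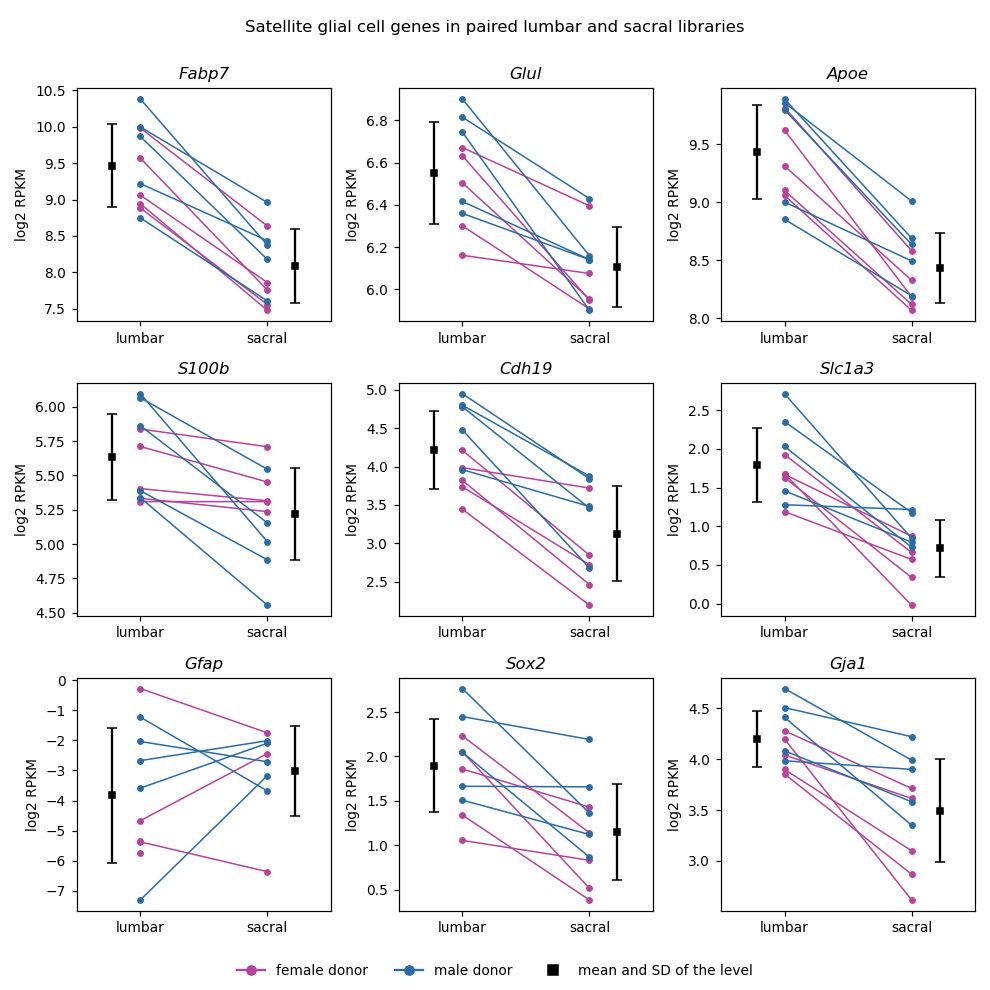
Log2 RPKM of the 9 satellite glial genes (y axes, each panel with its own range) in lumbar and sacral libraries (x axes), with lines joining the libraries of 1 donor and black squares and bars giving the mean and SD of each level. Every line falls from lumbar to sacral in 8 genes, while Gfap lies below 0 log2 RPKM with lines in both directions and 2 sacral libraries without a value.

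The carriers of lipid were the most abundant of the glial genes. Fabp7 (ENSMUSG00000019874, chr10:57504687-57508256, plus strand, mm9) encodes the brain-type fatty acid binding protein, a classical marker of satellite glia. Its lumbar values were 8.75 at the lowest, 9.39 at the median and 10.38 at the highest log2 RPKM, and its sacral values 7.48, 8.02 and 8.96. In 7 lumbar libraries Fabp7 lay above the highest sacral library. The level difference of Fabp7 was 1.38 on the log2 scale (SE 0.18, 95% interval 1.001 to 1.757, adjusted p = 9.19e-06), and 2.80% of the genes tested had a larger one. Within donors it ran from 0.781 in M1 to 2.003 in M2. The counts behind these values were 12106 to 66366 reads.

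Apoe (ENSMUSG00000002985, chr7:20281458-20284515, minus strand, mm9) encodes apolipoprotein E, which carries cholesterol between cells. Its lumbar values were 8.85, 9.47 and 9.89 log2 RPKM at the lowest, median and highest, and its sacral values 8.07, 8.41 and 9.01. Of the 10 lumbar libraries, 8 lay above the highest sacral one. The difference in Apoe was 0.999 (SE 0.13, adjusted p = 6.69e-06), that is 1.998-fold. The reads on Apoe numbered 28791 to 91965.

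Both genes reached the level of abundant neuronal transcripts. Fabp7 exceeded Snap25, a synaptic gene of neurons, in 9 of 10 lumbar and in 1 of 10 sacral libraries, on the per-length scale. Apoe exceeded Snap25 in 9 lumbar and 2 sacral libraries. Against Calca, the gene of the nociceptor peptide CGRP, Fabp7 was higher in 3 lumbar and 0 sacral libraries. Thus the order of glial and neuronal genes within a library differed between the levels for Snap25, whatever the scaling between libraries.

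The genes of glutamate handling differed by unequal amounts. Slc1a3 (ENSMUSG00000005360, chr15:8584124-8660764, minus strand, mm9) encodes the glutamate transporter GLAST of satellite glia. It was a low transcript, at 1.19, 1.67 and 2.71 log2 RPKM (lowest, median, highest) in lumbar and -0.02, 0.76 and 1.22 in sacral libraries. The values of 9 lumbar libraries lay above the highest sacral value, the clearest separation among the 8 genes. The difference in Slc1a3 was 1.07 (SE 0.16, adjusted p = 2.20e-05), or 2.10-fold, from 495 to 2229 reads.

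Glul (ENSMUSG00000026473, chr1:155747074-155756853, plus strand, mm9) encodes glutamine synthetase, the enzyme that turns glutamate into glutamine in glia. Its values were 6.16, 6.57 and 6.90 log2 RPKM in lumbar and 5.90, 6.11 and 6.43 in sacral libraries. The groups overlapped more than in Slc1a3, with 6 lumbar libraries above the highest sacral one. The difference was 0.45 (SE 0.085, adjusted p = 0.000297), or 1.36-fold. Glul overlaps 3 annotated genes, which held at most 192 reads in any library against at least 9773 on Glul. Scaled to total reads instead, the Glul difference was 0.12 (adjusted p = 0.26).

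Both the junction gene Gja1 and the adhesion gene Cdh19 were higher in lumbar libraries. Gja1 (ENSMUSG00000050953, chr10:56097106-56110225, plus strand, mm9) encodes connexin 43, a gap junction protein of satellite glia. Its values were 3.85, 4.14 and 4.70 log2 RPKM in lumbar and 2.62, 3.60 and 4.22 in sacral libraries. The difference in Gja1 was 0.70 (SE 0.13, adjusted p = 0.000187), or 1.62-fold, and the spread among sacral libraries (SD 0.51) was larger than among lumbar ones (SD 0.28), a difference in spread that was not tested. Gja1 and Fabp7 lie on the same chromosome with 1394461 bases between them, and S100b is also on chromosome 10.

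Cdh19 (ENSMUSG00000047216, chr1:112785772-112873949, minus strand, mm9) encodes cadherin 19, an adhesion protein of the neural crest glial lineage. Its values were 3.44, 4.10 and 4.95 log2 RPKM in lumbar and 2.19, 3.15 and 3.88 in sacral libraries. The difference was 1.09 (SE 0.16, adjusted p = 2.67e-05), or 2.13-fold, close in size to that of Slc1a3. Cdh19 had the widest spread among sacral libraries of the 8 genes tested (SD 0.62).

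Sox2 (ENSMUSG00000074637, chr3:34548927-34551383, plus strand, mm9), the transcription factor whose promoter is shown above, is kept on in adult satellite glia and is best known for its role in neural progenitors. Its values were 1.05, 1.95 and 2.76 log2 RPKM in lumbar and 0.38, 1.13 and 2.19 in sacral libraries, from 171 to 716 reads. The groups overlapped widely, with 3 lumbar libraries above the highest sacral one. The Sox2 difference was 0.75 (SE 0.18, adjusted p = 0.00238), or 1.68-fold. Sox2 lies inside the long noncoding gene Sox2ot on the same strand, which held 688 to 3968 reads, so reads of the pair may not be fully separated. In male donors alone the difference was 0.65 (adjusted p = 0.069).

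S100b (ENSMUSG00000033208, chr10:75716598-75723904, plus strand, mm9) encodes a calcium binding protein of glia, Schwann cells included, and had the smallest difference. Its values were 5.31, 5.56 and 6.10 log2 RPKM in lumbar and 4.55, 5.27 and 5.71 in sacral libraries. Of the 10 lumbar libraries, 5 lay above the highest sacral one. The difference in S100b was 0.42 (SE 0.11, adjusted p = 0.0035), or 1.33-fold. With total reads as the scaling it was 0.09 (adjusted p = 0.42). S100b overlaps Dip2a on the opposite strand (379 to 1433 reads), and whether strand was used in counting is not given in the sources used here.

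Gfap (ENSMUSG00000020932, chr11:102748650-102762226, minus strand, mm9) encodes the intermediate filament that satellite glia and astrocytes raise after injury. It was close to undetected, at 0 to 165 reads, with a value in all 10 lumbar and 8 of 10 sacral libraries. Gfap was below the filter and was not part of the main test. Without the filter its difference was -0.64 (SE 0.80, adjusted p = 0.586), and it was higher at the lumbar level in 4 of the 8 donors with both values. That fit leaves out the sacral libraries of F1 and F5, which held 0 reads against 3 and 6 in their lumbar partners. With these counted as 0, mean RPKM was 0.185 in lumbar and 0.132 in sacral libraries. No level difference in Gfap was detected, with few reads and a wide spread among libraries with a value (SD 2.24 in lumbar and 1.49 in sacral).

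The order of levels was close to the same at both spinal levels. In lumbar libraries Fabp7 and Apoe stood first and differed from each other by 0.03 ± 0.23 log2 RPKM (SD, n = 10), less than their spread. Glul, S100b, then Cdh19 with Gja1, then Sox2 with Slc1a3 followed. The steps from Apoe to Glul, Glul to S100b, S100b to Cdh19 and Gja1 to Sox2 were seen in 10 of 10 lumbar libraries. Cdh19 and Gja1 differed by 0.02 ± 0.33, and Sox2 and Slc1a3 by 0.10 ± 0.24, both within their spread. In sacral libraries Apoe was above Fabp7 in 9 of 10 libraries, by 0.35 ± 0.24, and Gja1 above Cdh19 in 9 of 10, by 0.37 ± 0.30. In lumbar libraries Fabp7 was above Apoe in 5 of 10 and Cdh19 above Gja1 in 4 of 10. So the means of both pairs changed order, from a near tie in lumbar libraries rather than from a settled lumbar order.

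The 8 genes did not change by the same amount. Since a factor applied to a whole library cancels in the ratio of 2 of its genes, the level differences of 28 pairs of genes were compared within donors, with an exact test over all sign changes of the 10 donors (two-sided, smallest possible p 0.00195) and adjustment over the 28 pairs, a comparison chosen after the data were seen. In 17 of the 28 pairs the differences were unequal at an adjusted p of at most 0.05. The 28 pairs reuse the same 8 genes, and how often pairs of other genes differ in this way was not examined. The lumbar excess of Fabp7 was larger than that of Glul by 0.93 ± 0.24 (SD, n = 10 donors, exact p = 0.00195, adjusted p = 0.0109), in 10 of 10 donors. It was larger than that of Apoe by 0.38 ± 0.20, with the same p-values and in 10 of 10 donors. The excess of Apoe was larger than that of Glul by 0.55 ± 0.20 in all 10 donors, also at the smallest possible p. No difference was detected between Cdh19 and Slc1a3 (0.02 ± 0.51, exact p = 0.916) or between Glul and S100b (0.03 ± 0.35, exact p = 0.795). Thus the lipid carriers Fabp7 and Apoe differed more between the levels than glutamine synthetase did. Quantile normalization, which alters ratios within a library, gave 0.74 for Fabp7 over Glul and 0.33 for Apoe over Glul, and the exact test was run in the deposited scaling.

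The same libraries often stood at the ends of the range. The lumbar library of M2 was the highest lumbar one for 8 of the 8 genes tested, and the lumbar library of F5 the lowest for 6. Without donor M2 all 8 genes remained called, with a median difference of 0.82. The sacral library of M4 was the highest sacral one for 6 genes.

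No satellite glial gene was called between the sexes at either level or for the interaction of sex and level (limma, all genes tested). Few genes were called at all, 0.0427% of those tested in lumbar and 0.0368% in sacral libraries, and 0.0% for the interaction. At an unadjusted p under 0.05, 1 glial gene differed in lumbar and 3 in sacral libraries, where 11.4% and 8.09% of all genes did. Cdh19 had a female minus male value of -0.75 in lumbar libraries (SE 0.25, unadjusted p = 0.00656, adjusted p = 0.331) and of -0.68 in sacral ones (adjusted p = 0.525). Gja1 had a female minus male value of -0.63 in sacral libraries (adjusted p = 0.423), and S100b one of 0.37 (adjusted p = 0.590).

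S100b was the single glial gene with an unadjusted p under 0.05 for the interaction, which 4.1% of all genes reached. Its lumbar minus sacral differences were 0.09, 0.10, 0.26, 0.13 and 0.0004 in F1 to F5, and 0.50, 1.08, 0.78, 0.52 and 0.71 in M1 to M5. The values of male and female donors did not overlap, as was the case in 0.62% of all genes with a value in every library. The difference between the sexes in this level effect was 0.60 (SE 0.21, unadjusted p = 0.0104), and it failed adjustment over all genes (adjusted p = 0.985). Within females alone, the S100b level difference was 0.11 (SE 0.12, adjusted p = 0.50). In the other 7 genes tested, the differences of male and female donors overlapped.

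**Figure D2:**
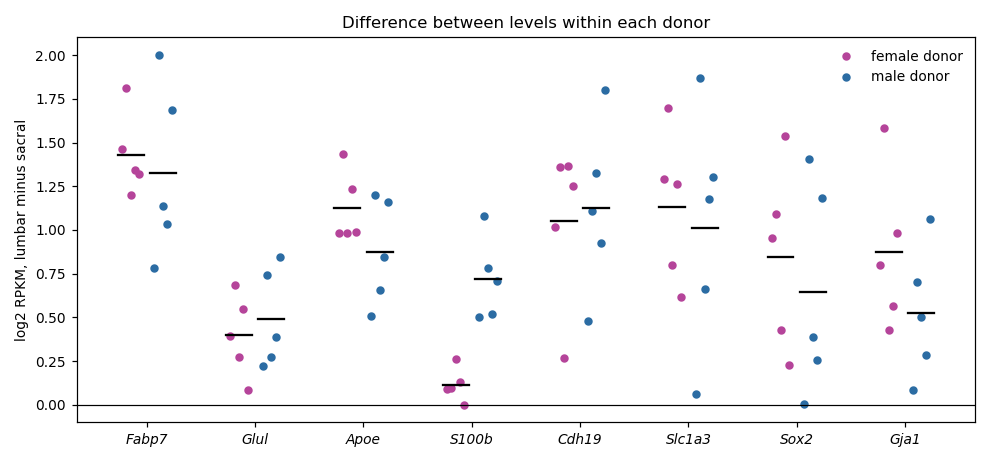
Lumbar minus sacral log2 RPKM (y axis) within each donor for the 8 satellite glial genes tested (x axis), with female and male donors as separate points and their means as black bars. All 80 points lie above 0, and in S100b female donors lie at 0.0004 to 0.26 and male donors at 0.50 to 1.08 (0.62% of all genes do not overlap, and the interaction in S100b has an adjusted p of 0.985).

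Summed over the 9 genes, the glial level was 1069 to 2538 RPKM in lumbar libraries (median 1545) and 574 to 1187 in sacral ones (median 758). The genes took 0.148 to 0.303% of all reads in lumbar and 0.116 to 0.204% in sacral libraries. Of the reads outside mitochondrial genes they took 0.329 to 0.746% and 0.148 to 0.323%. This measure leaves out the mitochondrial reads, a median of 55.2% in lumbar and 29.4% in sacral libraries. Most of the summed RPKM came from Fabp7 and Apoe, with means of 758 and 715 in lumbar and 288 and 353 in sacral libraries. Relative to the summed RPKM of the 10 neuron markers, the log2 ratio of the glial sum was -0.94 to 0.96 in lumbar (median -0.07) and -2.16 to -0.83 in sacral libraries (median -1.73). In each of the 10 donors the ratio was higher at the lumbar level, by 0.79 to 2.29 (median 1.60), a description in which the neuron markers move as well as the glial genes.

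Further markers of peripheral glia were higher in lumbar libraries as well. Of the 14 tested of a list of 15, 13 were higher in lumbar and 1 was higher in sacral libraries, with a median difference of 1.04. Among the most abundant of the list were Sparc, a matrix protein, at 1.01 (SE 0.14, adjusted p = 1.27e-05), and Dbi, an acyl-CoA binding protein, at 1.08 (SE 0.14). Kcnj10, the potassium channel Kir4.1 of satellite glia, differed by 1.26, and Sox10, the transcription factor of the peripheral glial lineage, by 1.40. The exception was Fasn, the fatty acid synthase found in many cell types, at -0.43. Its value was 0.14 when libraries were centred on the neuron markers, which moved the median of all genes from -0.11 to 0.46. A turn of sign with that centring, here and in the lists below, follows from this shift of all genes.

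The lists of pathways around the glial genes held genes in both directions. For the glutamate and glutamine cycle, 0 of 6 tested genes were higher in lumbar and 5 were higher in sacral libraries, with a median of -0.49. Centred on the neuron markers these counts were 3 and 1 with a median of 0.08 (all genes 0.46), and with quantile normalization 0 and 3. The most abundant was Slc17a6, the vesicular glutamate transporter of neurons, at -1.15 (SE 0.11, adjusted p = 2.23e-07). Glud1, glutamate dehydrogenase, was at -0.24 and Slc38a2, a glutamine transporter, at -0.32. With the neuron centring they were at 0.33 and 0.25, both below the median of all genes there (0.46). The glial transporter Slc1a2 had a difference of 0.30 (adjusted p = 0.134), against 0.43 with TMM (adjusted p = 0.00737), 0.87 with the neuron centring (adjusted p = 0.000297) and -0.02 with total reads.

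Among 5 tested genes of connexins and pannexin, 2 were higher in lumbar and 1 in sacral libraries, with a median of 0.24 that fell to -0.10 with total reads and to -0.0003 with quantile normalization. Gjc3, a glial connexin, differed by 1.02 (SE 0.20, adjusted p = 0.000317), and Panx1, a channel also used by neurons, by -0.90 (SE 0.10). Gjb1, a connexin of myelinating Schwann cells, had a value of -0.06 (adjusted p = 0.923). For cholesterol and lipoprotein handling, 3 of 8 tested genes were higher in lumbar and 3 in sacral libraries, with a median of 0.07 (-0.26 with total reads). Apod, a lipocalin of Schwann cells and fibroblasts, differed by 1.52 (SE 0.30). Apoe itself is not counted in this list.

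For Notch and glial fate, 6 of 9 tested genes were higher in lumbar and 1 in sacral libraries, with a median of 0.64. Hey2, a Notch target, differed by 1.27 (SE 0.14, adjusted p = 1.95e-06), and Nfia, a factor of glial differentiation, by 0.64 (SE 0.11). Hey1 had a value of 0.21 (adjusted p = 0.0522), which was -0.12 with total reads. Rbpj, whose core was searched for in the promoters, was the 1 gene higher in sacral libraries, at -0.32. Its value was 0.25 with the neuron centring, where the median of all genes was 0.46.

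Markers of other cells that could adhere to or pass with the sorted neurons moved as well. Of 10 tested genes of myelinating Schwann cells, 8 were higher in lumbar and 0 in sacral libraries (median 0.86), with Mbp, myelin basic protein, at 0.87 (SE 0.18). Pmp22 had a value of 0.20 (adjusted p = 0.122), which was -0.12 with total reads. The summed level of this list was 690 to 1566 RPKM in lumbar and 704 to 1193 in sacral libraries. Macrophage markers were low, at a sum of 3.94 to 24.6 RPKM in lumbar and 2.84 to 6.80 in sacral libraries, with 4 of 7 tested genes of 12 higher in lumbar and 0 in sacral libraries. Their most abundant genes, Cd68 (0.47), C1qb (0.90) and Fcer1g (1.19), did not pass the test.

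Of 11 endothelial and mural genes, 9 were higher in lumbar and 1, the pericyte gene Rgs5, in sacral libraries. Rgs5 was at -0.37, and at 0.20 with the neuron centring, where the median of all genes was 0.46. Cdh5, the cadherin of endothelium, was at 0.95 (SE 0.24) and Acta2, smooth muscle actin, at 1.61 (SE 0.43). The sum of the 11 genes was 98.5 to 194 RPKM in lumbar and 103 to 207 in sacral libraries. Of 7 fibroblast genes, 5 were higher in lumbar and 0 in sacral libraries, with Col1a2, a chain of collagen type I, at 1.14 (SE 0.20) and Lum, lumican, at 1.31 (SE 0.26), while the most abundant, Dcn, had a value of -0.35 (adjusted p = 0.133). Their sum was 72.3 to 327 RPKM in lumbar and 78.7 to 180 in sacral libraries. Of 7 red cell and neutrophil genes, 4 were higher in lumbar and 3 in sacral libraries, on sums of 1.11 to 24.8 and 0.816 to 37.8 RPKM, and with TMM on reads, where libraries without a read count as 0, these were 3 and 0.

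Of 6 central glia genes, Aqp4, a water channel, was the 1 tested, at 1.02 (SE 0.12, adjusted p = 3.26e-06), and the oligodendrocyte factors Olig1 and Olig2 had no reads in any library. The 10 neuron markers were all higher in sacral libraries in the deposited scaling, among them Stmn2 (-0.42, SE 0.085), Snap25 (-0.22, SE 0.076) and Prph (-0.71, SE 0.12). Of 6 markers of Trpv1 nociceptors, 4 were higher in sacral libraries and 0 in lumbar ones, with Scn10a, a sodium channel of nociceptors, at -0.94 (SE 0.15), while Calca (0.16, adjusted p = 0.160) and Tac1 (-0.10, adjusted p = 0.372) did not pass the test. With TMM 1 nociceptor marker was higher in lumbar and 4 in sacral libraries, and with the neuron centring 2 and 2. The list median then moved from -0.68 to -0.11, and that of all genes from -0.11 to 0.46. The part of the other cell types and of the mitochondrial share in the glial result was not tested.

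**Figure D3:**
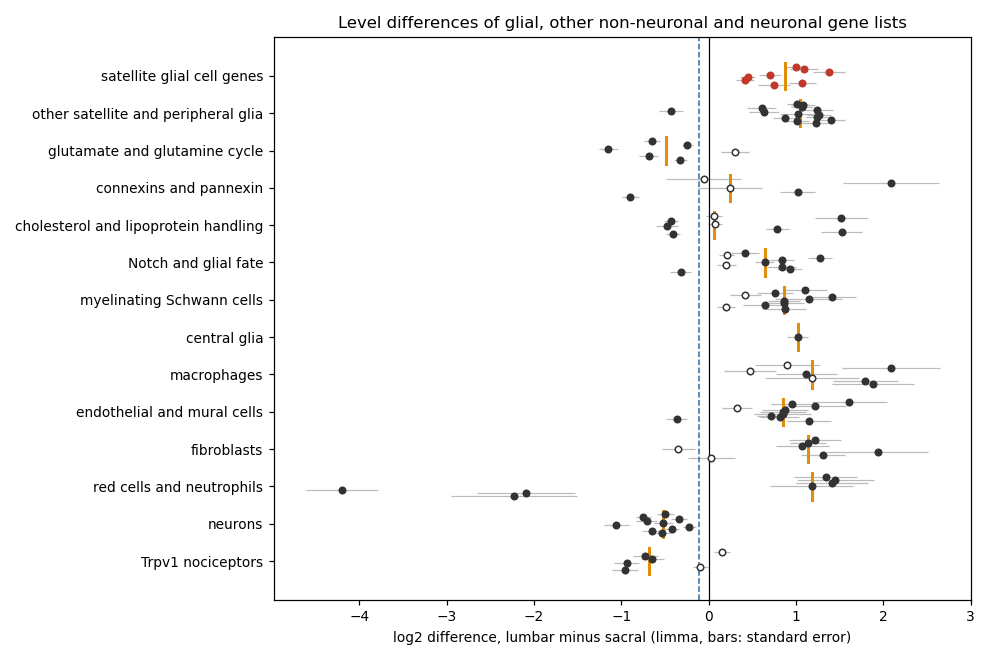
Log2 difference between lumbar and sacral libraries (x axis, bars give the standard error) for every tested gene of 14 lists (y axis), filled where the adjusted p is at most 0.05, red for the satellite glial genes, with orange lines at the list medians and a dashed line at the median of all genes (-0.11). The 8 satellite glial genes lie between 0.42 and 1.38, and the 10 neuron markers lie below 0.

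The genes most like the glial mean were found by centring each of 15310 genes on its own mean over the 20 libraries and taking the root mean square of its difference from the mean of the 8 genes. The closest were Lpar1, a receptor of lysophosphatidic acid (0.097 log2 units), Col28a1, a collagen (0.11), Cyp2j9, a cytochrome P450 (0.127), Mboat2, an acyltransferase (0.127), and Sh3pxd2b, an adaptor protein (0.13). The median over all genes was 0.71, and a flat profile, with no variation, lay at 0.54. The glial genes themselves lay at 0.20 (Apoe) to 0.43 (S100b) from the mean of the other 7. All 5 near genes were chosen by this likeness, and their lumbar minus sacral differences, 0.81 to 0.96, follow from it.

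The size of each fitted difference over all donors depended on how libraries were scaled to each other, while its direction did not. Within single donors the direction could turn, as it did for S100b in female donors as a share of all reads. With total reads as the scaling, the fitted differences of the 8 genes ran from 0.09 in S100b to 1.06 in Fabp7. With libraries centred on the neuron markers they ran from 0.99 in S100b to 1.95 in Fabp7. The median of all genes moved in parallel, from -0.43 to 0.46. Relative to it, the median of the 8 glial genes was higher by 0.97 with total reads, 0.98 in the deposited scaling and 0.98 with the neuron centring. A factor applied to a whole library shifts all its genes alike. The parallel move and the near equality of these 3 values therefore follow from the scalings and are no separate support. With the neuron centring 64.5% of all genes were higher in lumbar and 2.68% in sacral libraries, so the count of 8 of 8 is read there against that share.

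**Figure D4:**
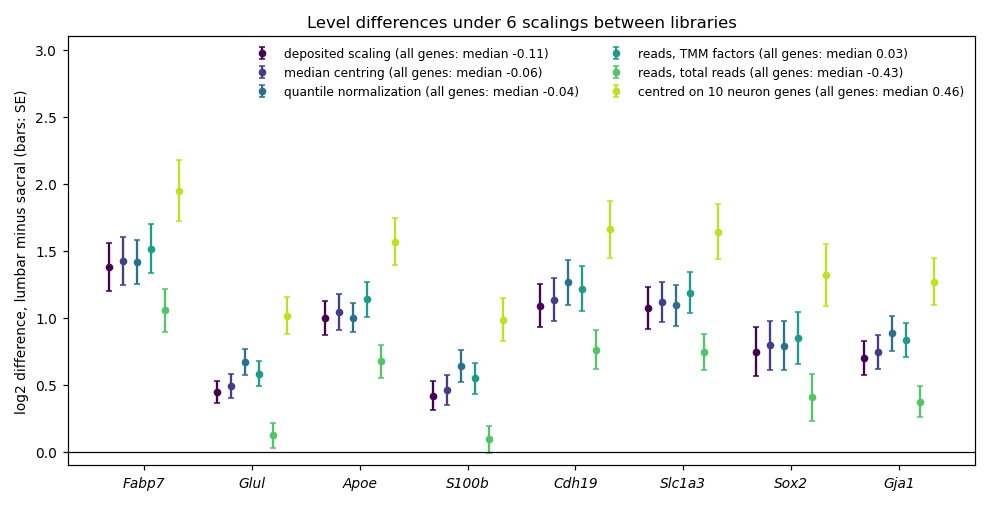
Log2 difference between lumbar and sacral libraries (y axis, bars give the standard error) of the 8 satellite glial genes tested (x axis) under 6 scalings between libraries, with the median of all genes under each in the key. All points lie above 0, total reads give the lowest and the neuron centring the highest values, and Fabp7 has the largest difference under each scaling.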

How the data were processed

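RNA of Trpv1 neurons sorted from lumbar and sacral DRG was amplified, sequenced and deposited by the authors as log2 RPKM, 1 column for each of 20 libraries, with no number added before the log. Per the paper's methods and the submitters' processing notes, reads were aligned with Subread to mm9, counted with featureCounts and scaled with edgeR and limma. The step that gives all libraries the same median is not given in the sources used here. Amplification and sorting from few cells can widen the spread of low genes such as Gfap.

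Reads per gene were worked back from the deposited values, and came out whole, within 0.01 of a read, for 28159 of the 28233 genes with a value, which hold 99.98% of all values. They were used for depth, shares and alternatives. Depth describes counting error only, while limma's standard errors and intervals cover the spread over donors, with donor as a block. Symbols and mm9 positions came from the annotation of that build (37205 of 37620 genes matched). Adgre1 was matched through its older name, and Hmgcs1 was not matched.

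Genes with a group mean above -1 log2 RPKM (at least 3 values) were fitted with limma 3.58.1 and statmod 1.5.0 (R 4.3.3), with 4 group means, donor as a random block (correlation 0.17), a variance trend and Benjamini-Hochberg adjustment over all genes, called at 0.05. The script was tested on simulated data. Same-numbered libraries come from the same animals; deviations of a donor's libraries from their group means correlated at 0.18 on average (0.04 to 0.30), and those of different donors at -0.04. No 2 libraries of a group agreed within sampling noise. Python 3.11.15 (pandas 2.3.3, scipy 1.17.1) and matplotlib 3.10.9 served for the rest.

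Named were the 9 genes, the 3 most abundant genes of each list and the 5 genes of most similar profile, less some that are not reported here, and further list genes (Kcnj10, Sox10, Slc1a2, Fasn, Rbpj, Olig1 and Olig2) chosen after their values were seen. The 9 genes and the lists were chosen with earlier results of these data known. Alternatives were other scalings, filters, pseudocounts, blocks, thresholds, single sexes and each donor left out.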

Additional observations from a re-analysis of the deposited data

Results flagged for a closer look

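Gfap in the lumbar library of donor F3 stood at -0.27 log2 RPKM (165 reads), far above the other 4 lumbar female libraries, which lay between -5.74 and -4.67. The gap to the nearest of them was 0.804 of the whole range of the group, above the 95% critical value for 5 samples. Chance marks about 1 in 20 groups, and this was the 1 marked of 35 groups of glial gene values examined. Gfap is not part of the tested comparison between levels.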

How the results depend on the processing

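Of 200 fitted level differences of the 8 satellite glial genes under 25 alternatives, 196 kept direction and call, 4 kept direction but lost the call, and none reversed. The 4 were Glul (0.12) and S100b (0.09) with total reads, Sox2 in males alone (0.65) and S100b in females alone (0.11). The count of genes called over the whole table was 7436, against 4644 in males alone and 3671 in females alone, fits with fewer libraries. Leaving out each donor in turn gave 6623 to 7475 genes called and 8 of 8 satellite glial genes each time, with Fabp7 at 1.29 to 1.45 and S100b at 0.37 to 0.44. Without the replicate block 6577 genes were called and with it as a fixed effect 7253, with 8 of 8 satellite glial genes in both, and the pairing changed no other call on them. Of the genes called, 33.5% were higher in lumbar libraries in the deposited scaling, 44.8% with quantile normalization, 53.3% with TMM, 13.1% with total reads and 96.0% with the neuron centring, which was added after seeing the data. Gfap rested on few reads, 0 to 165 in a library.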
